A study of Mus musculus with 2 samples.

Results

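The type I interferon response genes described here are 32 genes whose transcription interferon alpha and beta switch on, chosen by symbol: Ifit1, Ifit2, Ifit3, Ifit3b, Isg15, Isg20, Rsad2, Oas1a, Oas2, Oas3, Oasl1, Oasl2, Irf7, Irf9, Stat2, Usp18, Xaf1, Ifi44, Ifih1, Ddx58, Dhx58, Cmpk2, Zbp1, Bst2, Rtp4, Parp14, Ifi35, Ifi204, Ifi27l2a, Trim30a, Herc6 and Eif2ak2. All 32 had a row among the 32245 gene symbols of the files. They were read in the tumours of wild-type (WT) mice bearing MC38-OVA, a mouse colon carcinoma line with ovalbumin as a model antigen. One library came from mice whose diet held sitagliptin, a drug that blocks the peptidase DPP4, and 1 library from mice on a control diet. In both, CD45+ cells had been enriched magnetically and sequenced with the SeekOne DD 5' droplet kit; age, sex, dose, days of diet and the number of mice pooled were not stated. With 1 library per diet there is no replicate error and no test: each ratio sets 1 sitagliptin library over 1 control library, and each interval, at 95%, covers counting error only.

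Type I interferons bind the receptor IFNAR, whose kinases JAK1 and TYK2 activate STAT2. With IRF9 it takes part in the complex ISGF3, which binds the interferon-stimulated response element (ISRE) before the start of its target genes. The members fall into nucleic acid sensors (Ifih1, Ddx58, Dhx58, Zbp1, Ifi204), signalling factors and brakes (Stat2, Irf9, Irf7, Usp18), and antiviral effectors such as the RNA-binding Ifit proteins, the ubiquitin-like modifier Isg15, the radical enzyme Rsad2 (viperin), the oligoadenylate synthetases and the virion tether Bst2. In tumours, dendritic cells and macrophages that take up tumour DNA are known sources of interferon beta, and the response it induces in dendritic cells is known to help them prime CD8 T cells.

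To show what these genes share outside their counts, their promoters were read from RefSeq sequence (build GRCm38.p6, 250 bases before to 50 after each start site, 300 bases in all); 24 of the 32 members matched an entry by symbol. The core letters of the ISRE, a pair of GAAA runs with any 2 bases between them, were searched on both strands (TTTC runs on the other), overlaps counted. They were found in 13 of these 24 members (54.2%), against 1079 of 27025 genes of the table (3.99%). The 160 bases before the start are shown for 6 members that carry the results below, 5' to 3' on the gene's strand, with the ISRE core in capitals. Ifit1 (chr19:34640729-34640888, plus strand) and Ifit3 (chr19:34583369-34583528, plus strand) held 2 matches each in that stretch. Isg15 (chr4:156200819-156200978, minus strand) held 3 overlapping matches, Bst2 (chr8:71537473-71537632, minus strand) 2 overlapping matches and Rsad2 (chr12:26456453-26456612, minus strand) 1 match. Oasl1 (chr5:114923080-114923239, plus strand) held these letters nowhere in its window. The same was true of Ifit2, Isg20, Oasl2, Irf7, Irf9, Xaf1, Ifi44, Cmpk2, Ifi35 and Herc6. In Ptprc-low barcodes Oasl1 was the 1 member above a ratio of 1, while all of these others were lower.
Ifit1: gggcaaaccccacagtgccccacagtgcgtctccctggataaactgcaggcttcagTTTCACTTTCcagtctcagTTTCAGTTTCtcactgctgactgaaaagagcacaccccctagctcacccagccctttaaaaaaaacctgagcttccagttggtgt
Ifit3: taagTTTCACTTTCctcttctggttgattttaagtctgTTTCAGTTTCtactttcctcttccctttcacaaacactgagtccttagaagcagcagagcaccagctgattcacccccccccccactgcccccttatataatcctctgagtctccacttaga
Isg15: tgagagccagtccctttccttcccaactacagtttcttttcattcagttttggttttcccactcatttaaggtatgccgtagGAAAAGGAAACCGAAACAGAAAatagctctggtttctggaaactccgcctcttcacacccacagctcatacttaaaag
Rsad2: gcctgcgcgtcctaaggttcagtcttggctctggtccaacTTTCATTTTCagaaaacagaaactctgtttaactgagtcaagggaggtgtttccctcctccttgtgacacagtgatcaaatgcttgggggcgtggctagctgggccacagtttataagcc
Bst2: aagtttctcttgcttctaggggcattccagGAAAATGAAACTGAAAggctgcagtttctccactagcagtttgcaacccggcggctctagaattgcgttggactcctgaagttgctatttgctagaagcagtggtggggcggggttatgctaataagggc
Oasl1: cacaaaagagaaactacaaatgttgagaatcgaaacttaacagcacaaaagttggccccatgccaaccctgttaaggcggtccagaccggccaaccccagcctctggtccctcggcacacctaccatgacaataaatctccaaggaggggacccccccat

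The sitagliptin library had 9766 barcodes and 76788699 unique molecular identifiers (UMIs, 1 per captured RNA molecule), and the control library 8694 barcodes and 64139749 UMIs. Median depth was 5158 UMIs (sitagliptin) and 5074 UMIs (control) per barcode, and after removal of likely doublets 9180 sitagliptin and 8172 control barcodes were kept. Classes were called from marker UMIs, none of them a member. Their leading genes fit their names (Cd3d and Cd8b1 in T cells, Gzma and Klrb1c in NK cells, Ccl17 and Flt3 in dendritic cells, Chil3 and Ly6c2 in monocytes, C1qa and Trem2 in macrophages). The cells described as tumour-like could not be named so: of 14 tumour markers 8 had any UMI there and Krt8 had 1 UMI in each library, so they are called Ptprc-low barcodes after their lack of the CD45 gene (11.6 CPM in the sitagliptin and 7.21 CPM in the control library) and are led by Crabp1, Htra1, Cald1 and Sparc. Barcodes with both T cell and phagocyte RNA (452 sitagliptin, 558 control) and 2 clusters with a low median UMI count, each mostly from 1 library (393 sitagliptin and 1490 control barcodes in one, 1696 sitagliptin and 167 control barcodes in the other), stayed out of every class. The libraries share 132 barcode sequences, 10 of them in the same cluster in both.

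Monocytes held the highest summed level of the members in both libraries, and NK cells the lowest. Monocytes had 4943 UMIs per 1000000 UMIs of the class (CPM; interval 4879 to 5007) in the sitagliptin library and 5076 CPM (4987 to 5167) in the control library. Neutrophils came next, with 3878 CPM in 22 sitagliptin barcodes and 4207 CPM in 28 control barcodes. Plasmacytoid dendritic cells had 3392 CPM (22 barcodes, sitagliptin) and 3799 CPM (12 barcodes, control), and 77.3% of these UMIs belonged to Bst2, Ifi27l2a and Trim30a; Bst2 marks this cell type in mice even without interferon and reached 1861 CPM (sitagliptin) and 2760.3 CPM (control) in it. Macrophages had 2173 CPM (sitagliptin) and 2246 CPM (control), T cells 1798 CPM (sitagliptin) and 1814 CPM (control), and NK cells 901 CPM (sitagliptin) and 861 CPM (control). Monocytes made up 6.58% of the kept UMIs and 14.97% of the member UMIs in the sitagliptin library, and 4.10% and 9.02% in the control library. Macrophages gave 44.8% of the member UMIs of the sitagliptin library and 36.2% of those of the control library, close to their share of all UMIs (44.8% and 37.1%). Plac8 and Ly6c2, used among the monocyte markers, can themselves be induced by interferon. Their part in the high level of monocytes was not tested. With monocytes called without them, only comparisons between the libraries were recomputed. The sitagliptin-over-control ratio of macrophages was then 0.989 in place of 0.967.

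**Figure D1:**
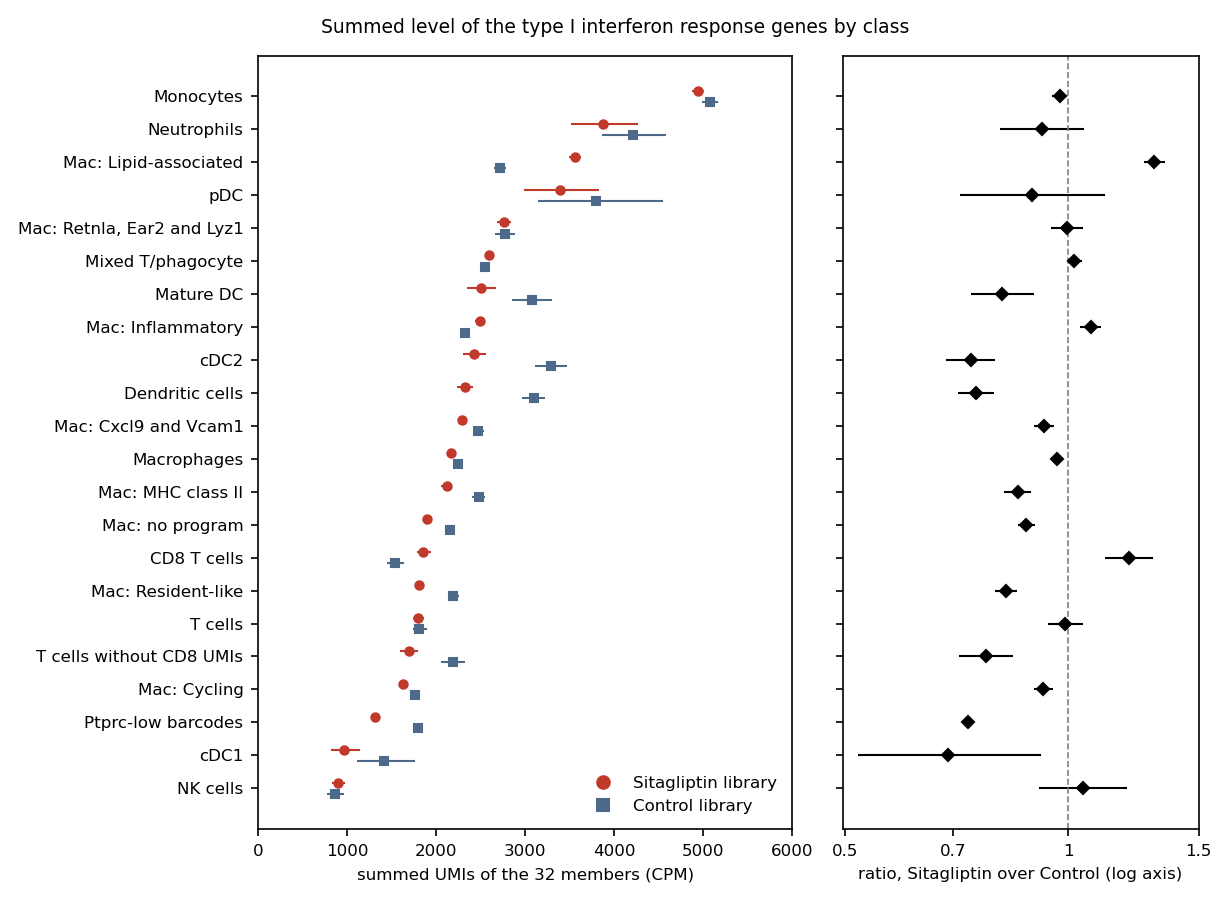
Left, summed UMIs of the 32 members in CPM for each class (sitagliptin, red circles; control, blue squares; bars, exact Poisson 95% intervals, counting error only). The row T cells without CD8 UMIs holds T cells with fewer than 2 such UMIs. Right, their ratio, sitagliptin over control, on a log axis with its exact 95% interval: lipid-associated macrophages (1.31), CD8 T cells (1.21) and inflammatory macrophages (1.07) lie above 1, dendritic cells (0.7504) and Ptprc-low barcodes (0.733) below it, and NK cells have the lowest levels (901 CPM sitagliptin, 861 CPM control).

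Within a class the response was uneven between barcodes. After each barcode was thinned to 2000 UMIs, so that depth no longer differed, the median monocyte had 7 member UMIs in the sitagliptin library and 8 in the control library, and 36.5% (sitagliptin) and 38.9% (control) had 10 or more. The same threshold was reached by 9.997% of sitagliptin and 10.36% of control macrophages, by 9.24% of sitagliptin and 4.86% of control CD8 T cells, and by 1.57% of sitagliptin and 2.44% of control NK cells. In each of these classes the intervals of the libraries overlapped, as in CD8 T cells (5.95% to 13.5% sitagliptin, 1.98% to 9.76% control). The 10% of macrophages with the most held 44.1% (sitagliptin) and 41.3% (control) of the thinned member UMIs, and in Ptprc-low barcodes this share was 57.5% (sitagliptin) and 49.2% (control). The members went together in the same barcodes: monocytes with Rsad2 carried a mean of 22.0 UMIs of the other members against 7.53 in monocytes without it in the sitagliptin library, and 23.5 against 8.14 in the control library. For macrophages these means were 15.1 against 3.38 (sitagliptin) and 14.3 against 3.72 (control). Macrophages with at least 10 thinned member UMIs numbered 358 of 3581 in the sitagliptin library and 315 of 3041 in the control library, a range of a count and not a cell type.

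**Figure D2:**
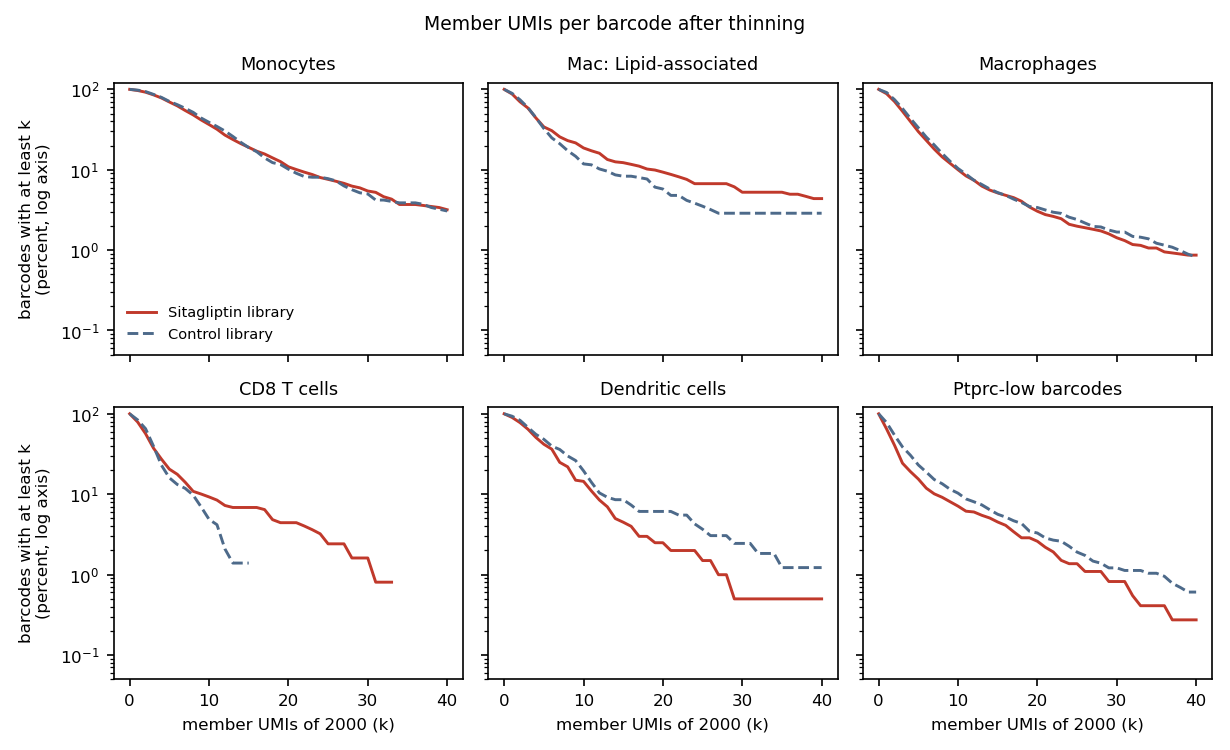
Percent of barcodes (log axis) with at least k member UMIs after thinning to 2000 UMIs, in 6 classes (sitagliptin, red solid line; control, blue dashed line). The curves lie together in monocytes and macrophages. At 20 UMIs the sitagliptin curve is higher in lipid-associated macrophages (9.33% against 5.75%) and CD8 T cells (4.42% against 0), and lower in dendritic cells (2.49% against 6.10%). These shares rest on few barcodes (5 of 201 in sitagliptin dendritic cells), and no intervals are drawn.

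Monocytes carried nearly the same level of the response on either diet. The summed ratio was 0.974 (0.953 to 0.995), all 32 members were measured (at least 20 UMIs over both libraries), and 9 were higher and 23 lower in the sitagliptin library, with a median log2 ratio of -0.07. Over all 9449 genes measured in monocytes the median was -0.08 and 38.7% were higher, close to the members. Isg15 had 922 CPM in sitagliptin monocytes and 963 CPM in control monocytes, Rsad2 224 CPM in sitagliptin and 218 CPM in control, and Ifit1 35.8 CPM in sitagliptin and 39.2 CPM in control. Ifit3 had 92.4 CPM (sitagliptin) and 100.4 CPM (control), and Irf7, the factor that amplifies interferon alpha production, 144 CPM (sitagliptin) and 156 CPM (control). The intervals of these 5 ratios all held 1. Among the 6 highest ratios were Stat2 (1.23; 94.3 CPM sitagliptin, 76.4 CPM control), Parp14 (1.13) and Ifi204 (1.12), whose intervals lay above 1, and Oas3 (1.23), Ifit3b (1.22) and Ifi27l2a (1.06), whose intervals held 1. The lowest were the sensor gene Dhx58 (0.656), Ifi35 (0.687), the exonuclease gene Isg20 (0.731), Oasl2 (0.824; 96.7 CPM sitagliptin, 117 CPM control), Ifi44 (0.826) and Xaf1 (0.833), of which only the interval of Ifi44 held 1. Bst2 had 278 CPM in sitagliptin and 323 CPM in control monocytes.

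Macrophages as a whole had members on both sides of 1 and sums close to each other. The summed ratio was 0.967 (0.956 to 0.979) and the median log2 ratio -0.06, beside -0.07 over all 13386 genes measured; 12 members were higher and 20 lower, 38.2% of all genes were higher, and no member was 1.5-fold higher (3.97% of all genes) or lower (5.12%). When classes were taken from clusters of barcodes in place of marker UMIs, the summed ratio was 1.04 and 21 members were higher, so the direction of the sum depended on how the classes were called. The share of all genes higher in the cluster-called macrophages was not counted. Higher in the sitagliptin library were Oasl1, in mice a brake on Irf7 translation (1.49, 1.37 to 1.63; 50.8 CPM sitagliptin, 34.1 CPM control), Ifit2 (1.34; 68.3 CPM sitagliptin, 50.9 CPM control), Ifit1 (1.31; 22.9 CPM sitagliptin, 17.4 CPM control), Ifih1 (1.13), Rsad2 (1.12; 99.4 CPM sitagliptin, 88.4 CPM control) and Oas1a (1.10). Lower were Ifi44 (0.686), Isg20 (0.688), Ifi35 (0.738), Oasl2 (0.835; 36.8 CPM sitagliptin, 44.1 CPM control), Bst2 (0.842; 346 CPM sitagliptin, 410.5 CPM control) and Zbp1 (0.869). The intervals of all 12 lay on 1 side of 1, with the lower bound of Oas1a at 1.003. Isg15 had 310.4 CPM in sitagliptin and 332 CPM in control macrophages, Ifit3 42.3 CPM in sitagliptin and 39.7 CPM in control, Irf7 52.1 CPM in sitagliptin and 58.2 CPM in control, and Stat2 38.6 CPM in sitagliptin and 40.4 CPM in control. Median depth in macrophages was 8025 UMIs (sitagliptin) and 6344 UMIs (control), and with each barcode thinned to 2000 UMIs the summed ratio was 0.956. The part of depth in the ratios of single members was not tested. C1qa had 1346 CPM (sitagliptin) and 1671 CPM (control), and the part of this difference in the ratios was not tested.

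Macrophages were divided by which of 7 marker programs they scored highest, and the lipid-associated ones stood apart with the response higher in the sitagliptin library. This program (Gpnmb, Fabp4, Fabp5; genes of lipid handling and lysosomes; Ifnb1 and Ifit2 were also among its 10 leading genes) took 343 of 3581 sitagliptin macrophages (9.58%) and 313 of 3041 control macrophages (10.3%). Its summed member level was 3557 CPM in the sitagliptin and 2719.8 CPM in the control library (ratio 1.31, 1.27 to 1.35). All 32 members were measured there, 26 higher and 6 lower, while 43.1% of all genes were higher. The median log2 ratio was 0.42 beside -0.05 over 9142 genes; 8 members were at least 1.5-fold higher, against 4.93% of all genes, and 0 as much lower, against 7.11% of all genes. With the barcode of the largest member share left out of each library the ratio was 1.35, and after thinning it was 1.21.

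The 6 highest ratios in these macrophages were those of Oasl1, Oas3, Ifit2, Ifit1, Rtp4 and Ifih1. Of the sensor genes, Ifih1 was among these, while Zbp1 was among the 6 lower members. Oasl1 had 87.2 CPM in the sitagliptin and 38.9 CPM in the control library (ratio 2.24, 1.75 to 2.89). Ifit2 had 273 CPM (sitagliptin) and 136 CPM (control; 2.01, 1.76 to 2.30), and it was found in 68 sitagliptin and 39 control barcodes. Ifit1 had 79.1 CPM (sitagliptin) and 41.6 CPM (control; 1.90). The synthetase gene Oas3 had a ratio of 2.13 on 20 UMIs (sitagliptin) and 7 UMIs (control), the receptor chaperone gene Rtp4 1.71 and the RNA sensor gene Ifih1 1.67. Rsad2 had 353 CPM (sitagliptin) and 231 CPM (control; 1.53), Isg15 529.6 CPM (sitagliptin) and 365 CPM (control; 1.45), and Ifit3 122 CPM (sitagliptin) and 83.6 CPM (control; 1.46). The signalling factors Irf7 (91.8 CPM sitagliptin, 62.2 CPM control) and Stat2 (65.5 CPM sitagliptin, 45.6 CPM control) were higher too, as was Oasl2 (65.8 CPM sitagliptin, 51.9 CPM control). The 6 lower members were Isg20 (0.798), Ifi35 (0.853), Zbp1 (0.862), Eif2ak2 (0.885), Bst2 (0.936; 475 CPM sitagliptin, 508 CPM control) and Ifi27l2a (0.944), all with intervals that held 1. In this program 18.7% of sitagliptin (14.7% to 23.2%) and 11.8% of control barcodes (8.46% to 15.9%) had 10 or more thinned member UMIs. These intervals overlap, and the median was 3 in both.

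Among the called classes, most UMIs of interferon beta itself were counted in macrophages. Ifnb1 had 269 UMIs in 25 sitagliptin macrophages (8.48 CPM) and 41 UMIs in 9 control macrophages (1.87 CPM). Of these, 111 UMIs lay in 11 lipid-associated barcodes of the sitagliptin library, 52 of them in 1 barcode, and 35 UMIs in 4 such barcodes of the control library. Macrophages with no program held 93 UMIs (sitagliptin) and 2 UMIs (control), cycling ones 27 (sitagliptin) and 0 (control), and inflammatory ones 24 (sitagliptin) and 3 (control). Resident-like macrophages held 11 (sitagliptin) and 0 (control), and those of the Cxcl9 and Vcam1 program 3 (sitagliptin) and 1 (control). Neither library had an Ifnb1 UMI in T cells, NK cells, neutrophils or dendritic cells, and monocytes had 14 UMIs (sitagliptin) and 1 UMI (control) and Ptprc-low barcodes 1 UMI (sitagliptin) and 13 UMIs (control).

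The other programs differed less or the other way. Inflammatory macrophages (Cxcl3, Mmp8, Inhba) had 2496 CPM in the sitagliptin and 2328 CPM in the control library (ratio 1.07, 1.04 to 1.11), with 21 members higher and 11 lower, while 40.4% of all genes were higher. This rested on 1 sitagliptin barcode in which 883 UMIs, 10.6% of its total, belonged to members; with the barcode of largest member share left out of each library the ratio was 0.953 and the median log2 ratio -0.07. Its highest ratios were Ifit3b (3.71), Ifit1 (1.82), Ifit2 (1.54), Usp18 (1.43), Ifih1 (1.36) and Ifit3 (1.33; 53.4 CPM sitagliptin, 40.0 CPM control), and its lowest Isg20, Trim30a, Oas2, Zbp1, Oasl2 and Stat2 (0.754 to 0.841). Ifit3 and Ifit3b transcripts are 97.8% identical over 1700 aligned bases, so the split of their counts is uncertain. Resident-like macrophages (Fcrls, Cbr2, Folr2) had 1809.9 CPM (sitagliptin) and 2194 CPM (control; ratio 0.825), with 26 of 32 members lower, while 48.1% of all genes were higher, down to 0.391 for Oas3, 0.534 for Cmpk2 and 0.544 for Irf7 (24.1 CPM sitagliptin, 44.3 CPM control), and with Ifit3b (1.75) and Ifit1 (1.35) at the other end. Macrophages highest in MHC class II had a ratio of 0.855 (22 of 30 measured members lower; 42.9% of all genes higher), the cycling ones 0.926, those with Cxcl9 and Vcam1 0.928, those with Retnla, Ear2 and Lyz1 0.996, and those with no program 0.878. Oasl1 was higher in 5 of these last 5 groups and reached 171 CPM (sitagliptin) and 114 CPM (control) in Retnla macrophages and 59.8 CPM (sitagliptin) and 31.6 CPM (control) in Cxcl9 macrophages, while Bst2 was lower in all 5 (0.741 to 0.828). The programs are ranges of a score, and 633 of 6622 macrophages (9.56%) lay near the threshold. Their mix differed too, with resident-like cells at 13.9% of sitagliptin and 9.54% of control macrophages; with the same mix in both libraries the ratio over all macrophages was 0.964.

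Member by member, Isg15 had 185 CPM in sitagliptin and 262 CPM in control resident-like macrophages, and Rsad2 had 65.6 CPM in sitagliptin and 73.3 CPM in control. There the ratios were lowest for Oas3 (0.391), Cmpk2 (0.534), Irf7 (0.544), Isg20 (0.603), Ifi35 (0.674) and Ddx58 (0.689), and highest for Ifit3b (1.75), Ifit1 (1.35), Oas1a (1.15), Dhx58 (1.07), Eif2ak2 (1.04) and Ifih1 (1.01). Isg15 had 374 CPM in sitagliptin and 532 CPM in control MHC class II macrophages, and Rsad2 had 57.3 CPM in sitagliptin and 47.6 CPM in control. There the ratios were lowest for Ifi44 (0.246), Irf9 (0.584), Irf7 (0.613), Ifi35 (0.638), Herc6 (0.676) and Isg15 (0.704), and highest for Oasl1 (1.32), Xaf1 (1.26), Rsad2 (1.20), Ifit2 (1.20), Parp14 (1.12) and Oas1a (1.09). The level of Isg15 was 233 CPM in sitagliptin and 238 CPM in control cycling macrophages, and Rsad2 had 45.7 CPM in sitagliptin and 37.8 CPM in control. There the ratios were lowest for Oas3 (0.567), Cmpk2 (0.650), Ifi44 (0.681), Ifi35 (0.685), Ifit3b (0.701) and Stat2 (0.748), and highest for Oasl1 (1.59), Ifit2 (1.43), Ifit1 (1.35), Ifit3 (1.35), Ddx58 (1.26) and Rsad2 (1.21). For Isg15 the level was 382 CPM in sitagliptin and 427 CPM in control Cxcl9 and Vcam1 macrophages, and Rsad2 had 52.8 CPM in sitagliptin and 54.8 CPM in control. There the ratios were lowest for Ifit3b (0.409), Cmpk2 (0.495), Ifi44 (0.574), Ifit2 (0.597), Ifit1 (0.707) and Usp18 (0.766), and highest for Oasl1 (1.89), Oas3 (1.16), Irf7 (1.15), Isg20 (1.11), Ifi204 (1.10) and Trim30a (1.07). Isg15 had 354 CPM in sitagliptin and 359.6 CPM in control Retnla macrophages, and Rsad2 had 60.8 CPM in sitagliptin and 102 CPM in control. There the ratios were lowest for Cmpk2 (0.329), Usp18 (0.564), Irf9 (0.569), Dhx58 (0.576), Rsad2 (0.596) and Xaf1 (0.645), and highest for Ifit3 (1.504), Oasl1 (1.49), Stat2 (1.48), Parp14 (1.30), Oas1a (1.26) and Ddx58 (1.23). Isg15 had 234 CPM in sitagliptin and 293 CPM in control macrophages with no program, and Rsad2 had 84.8 CPM in sitagliptin and 80.7 CPM in control. There the ratios were lowest for Ifit3b (0.355), Isg20 (0.370), Ifi44 (0.552), Ifi35 (0.665), Ifit3 (0.690) and Oas3 (0.725), and highest for Oas1a (1.30), Ifit2 (1.25), Ifih1 (1.09), Rsad2 (1.05), Irf9 (1.04) and Ifit1 (1.04). Ifit1 was among the 6 highest in resident-like and cycling macrophages and among the 6 lowest in those with Cxcl9 and Vcam1.

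**Figure D3:**
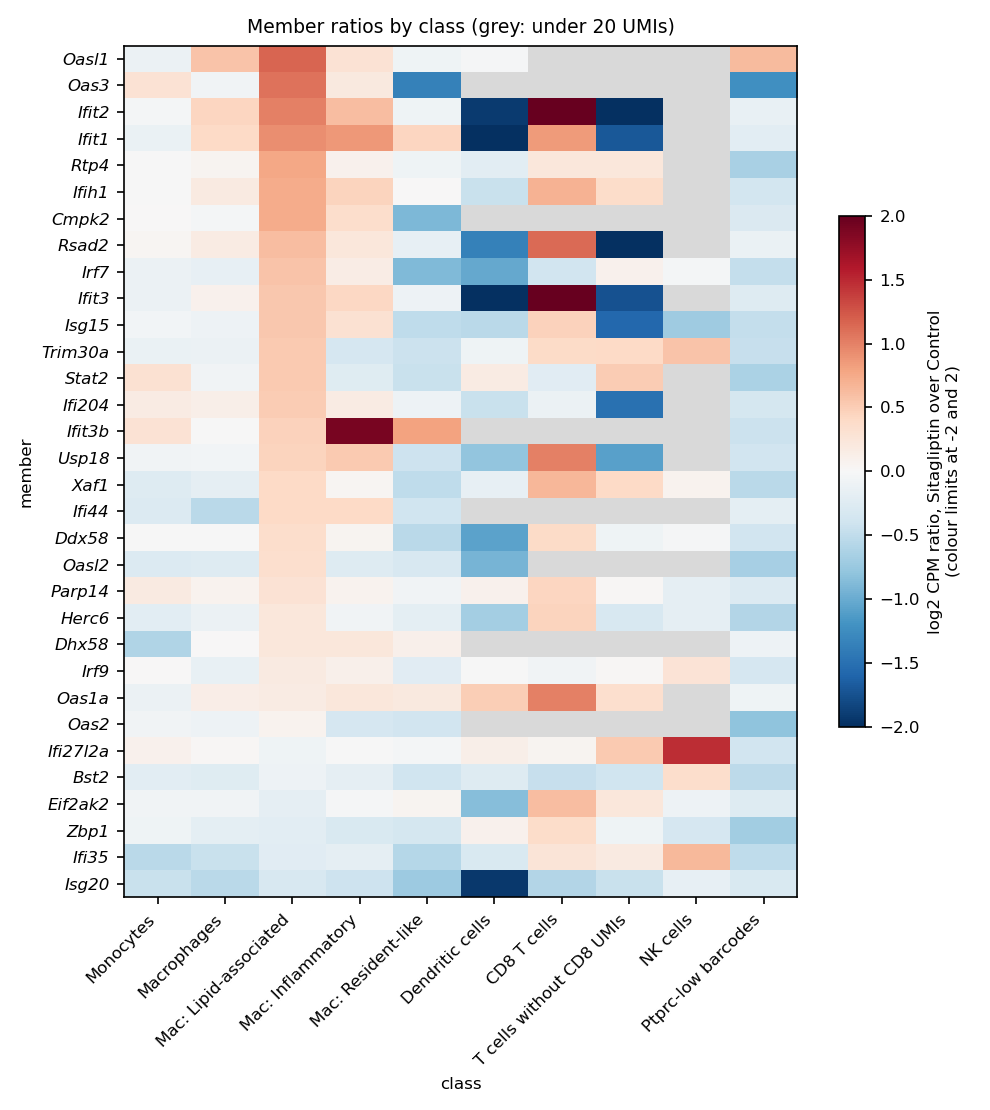
Log2 ratio of CPM, sitagliptin over control, of each member (rows, ordered by lipid-associated macrophages) in 10 classes (columns); red is higher and blue lower in the sitagliptin library, and grey has under 20 UMIs. Lipid-associated macrophages and CD8 T cells are mostly red, dendritic cells and Ptprc-low barcodes mostly blue. The column T cells without CD8 UMIs holds T cells with fewer than 2 such UMIs.

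Dendritic cells called by marker UMIs, by contrast with lipid-associated macrophages, had the response lower in the sitagliptin library. Over 201 sitagliptin and 164 control dendritic cells the summed level was 2323 CPM (sitagliptin) and 3096 CPM (control), a ratio of 0.7504 (0.709 to 0.794). Of 26 members measured, 5 were higher and 21 lower, while 46.8% of all genes were higher. The median log2 ratio was -0.44 beside -0.03 over 7253 genes. At least 1.5-fold lower were 11 members, against 9.86% of all genes, and 0 were as much higher, against 8.42% of all genes. Ifit3 and Ifit1 had the lowest ratios. Ifit3 had 12 UMIs in 9 sitagliptin barcodes and 67 UMIs in 15 control barcodes (10.3 CPM against 92.1 CPM; ratio 0.112, 0.0552 to 0.209). Ifit1 had 6.02 CPM (sitagliptin) and 31.6 CPM (control; 0.190), Ifit2 22.4 CPM (sitagliptin) and 83.8 CPM (control; 0.267), Isg20 a ratio of 0.262, Rsad2 30.1 CPM (sitagliptin) and 77.0 CPM (control; 0.391) and the RNA sensor gene Ddx58 a ratio of 0.477. Irf7 had 41.3 CPM (sitagliptin) and 83.8 CPM (control), Oasl2 43.9 CPM (sitagliptin) and 83.8 CPM (control), Isg15 433 CPM (sitagliptin) and 631 CPM (control), and Bst2 315 CPM (sitagliptin) and 377 CPM (control). The highest were Oas1a (1.41), Stat2 (1.12; 107 CPM sitagliptin, 94.8 CPM control), Ifi27l2a, Parp14 and Zbp1 (1.06 to 1.08) and Irf9 (0.991), all with intervals that held 1.

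By subset, cDC2, the type 2 conventional dendritic cells that mainly prime CD4 T cells, had 2427 CPM in 86 sitagliptin and 3286 CPM in 74 control barcodes (ratio 0.739, 0.684 to 0.797), and mature migratory dendritic cells 2508 CPM in 70 sitagliptin and 3076 CPM in 65 control barcodes (0.815, 0.739 to 0.900). Ifit3 had 7 UMIs in sitagliptin and 42 UMIs in control cDC2, and 4 UMIs in sitagliptin and 24 UMIs in control mature cells. The cross-presenting cDC1 (23 sitagliptin, 13 control barcodes) had 972 CPM (sitagliptin) and 1410.4 CPM (control), with Ifit1 and Rsad2 at 0 UMIs in both libraries. Lyz2, a macrophage and monocyte gene, had 497.8 CPM in sitagliptin and 778 CPM in control dendritic cells, and C1qa 23.2 CPM in sitagliptin and 41.2 CPM in control; whether such cells or their RNA take part in the difference was not tested. With dendritic cells taken from clusters (321 sitagliptin, 244 control barcodes), the summed ratio was 0.908 and 13 members were higher and 19 lower. The share of all genes higher was not counted there. The median log2 ratio of the members was then -0.03, against -0.44 with marker calls, where it was -0.03 over all genes. The difference thus depends on how these cells are called.

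CD8 T cells, with at least 2 UMIs of Cd8a and Cd8b1 together, had the response higher in the sitagliptin library. In the other T cells, with fewer than 2 such UMIs, the sum was lower and the members were split evenly. Over 249 sitagliptin and 144 control CD8 T cells the summed level was 1859 CPM (sitagliptin) and 1539 CPM (control), a ratio of 1.21 (1.12 to 1.30). Of 24 members measured, 18 were higher and 6 lower, while 43.2% of all genes were higher. The median log2 ratio was 0.41 beside -0.06 over 7592 genes; 9 were at least 1.5-fold higher, against 7.47% of all genes, and 1 was as much lower, against 12.1% of all genes. Ifit3 had 86 UMIs in 28 sitagliptin barcodes and 12 UMIs in 8 control barcodes (73.3 CPM against 18.1 CPM; ratio 4.05, 2.20 to 8.14). Ifit2 had 45.2 CPM (sitagliptin) and 10.6 CPM (control; 4.28, 1.94 to 11.2), and Rsad2 33.2 CPM (sitagliptin) and 15.1 CPM (control; 2.20, 1.08 to 4.95). Ifit3b had 16 UMIs in sitagliptin and 0 in control CD8 T cells, too few to count as measured. With the control count set to the floor of 3 counts its ratio was 3.01, a point value and not a lower bound. Oas1a (2.02), Usp18, which removes Isg15 from proteins and damps IFNAR (2.01), and Ifit1 (1.81; 27.3 CPM sitagliptin, 15.1 CPM control) had intervals that held 1. Isg15 had 234 CPM (sitagliptin) and 170.5 CPM (control). Lower were Isg20 (0.666) and Bst2 (0.723; 141 CPM sitagliptin, 195 CPM control), with Irf7 (0.771; 25.6 CPM sitagliptin, 33.2 CPM control), Stat2 (0.859; 32.4 CPM sitagliptin, 37.7 CPM control), Ifi204 (0.927) and Irf9 (0.947) within counting error, and Oasl2 had 9 UMIs (sitagliptin) and 7 UMIs (control).

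CD8 T cells with many member UMIs were a small set, found mostly in the sitagliptin library. At least 20 of 2000 thinned UMIs belonged to members in 11 of 249 sitagliptin barcodes (4.42%) and in 0 of 144 control barcodes. With the floor of 3 counts in place of 0 the control share would be 2.08%, a point value and not an upper bound. No interval was computed for these shares. The median was 2 in both libraries. C1qa had 18.8 CPM in sitagliptin and 21.1 CPM in control CD8 T cells, and Lyz2 132 CPM in sitagliptin and 178.0 CPM in control. Cd3e had 489 CPM (sitagliptin) and 309 CPM (control). The part of these RNAs in the result was not tested. When barcodes with both T cell and phagocyte RNA were counted as T cells the CD8 ratio was 1.05. The other T cells (179 sitagliptin, 117 control barcodes) had 1695 CPM (sitagliptin) and 2189.8 CPM (control; ratio 0.774, 0.712 to 0.842), a division made after the values of all T cells were seen, and were led by Ikzf2, the NK receptor genes Klra7 and Klra1, and Gzmc. Of 24 members measured there, 12 were higher and 12 lower, while 45.1% of all genes were higher, and the median log2 ratio was -0.03 beside -0.06 over all genes. At least 1.5-fold lower were 7 members, against 14.3% of all genes. One control barcode held 138 of the 1060 control member UMIs and 41 of the 70 Rsad2 UMIs. With the barcode of largest member share left out of each library the ratio was 0.864. After thinning, these T cells had a mean of 3.28 (sitagliptin) and 3.44 (control) member UMIs, close to each other, and a median of 2 in both. Then 6.70% of sitagliptin and 4.27% of control barcodes had 10 or more, with intervals that overlap. Lowest were Rsad2 (0.0809; 8 UMIs sitagliptin, 70 UMIs control), Ifit2 (0.193), Ifit3 (0.298; 11.7 CPM sitagliptin, 39.3 CPM control), Ifit1 (0.310), Isg15 (0.337; 145 CPM sitagliptin, 429.7 CPM control) and Ifi204 (0.354), and highest Ifi27l2a (1.43, 1.15 to 1.79), Stat2, Xaf1, Trim30a, Ifih1 and Oas1a (1.26 to 1.41). Over all T cells (428 sitagliptin, 261 control) the ratio was 0.992 (0.938 to 1.05), and 17 of 28 measured members were higher, while 42.7% of all genes were, with Bst2 at 0.733. The ratios over all T cells were lowest for Rsad2 (0.363), Dhx58 (0.485), Ifi204 (0.618), Oasl2 (0.654), Isg20 (0.697) and Isg15 (0.719), and highest for Ifit3 (1.87), Oas1a (1.58), Ifih1 (1.48), Xaf1 (1.43), Eif2ak2 (1.35) and Trim30a (1.31).

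NK cells had little of the response on either diet. In 127 sitagliptin and 82 control barcodes the ratio was 1.05 (0.913 to 1.20), and 14 members had at least 20 UMIs, 6 of them higher and 8 lower, while 51.1% of all genes were higher. Ifit1, Ifit3 and Rsad2 had at most 2 UMIs in either library. Isg15 had 53.6 CPM (sitagliptin) and 88.0 CPM (control), Bst2 146 CPM (sitagliptin) and 115 CPM (control), and Irf7 20.9 CPM (sitagliptin) and 21.3 CPM (control), all with ratios whose intervals held 1. One sitagliptin barcode held 38 of the 98 Bst2 UMIs; without the barcode with the most Bst2 UMIs in each library, Bst2 had 93.5 CPM (sitagliptin) and 106 CPM (control). Oasl2 had 7 UMIs (sitagliptin) and 4 UMIs (control) and Stat2 12 UMIs (sitagliptin) and 6 UMIs (control). Ddx58, the RIG-I sensor gene, was the exception in level: among T cells, NK cells, dendritic cells, monocytes, macrophages and Ptprc-low barcodes it was highest in NK cells in both libraries, at 99.8 CPM (sitagliptin) and 101 CPM (control), against 43.5 CPM (sitagliptin) and 43.8 CPM (control) in macrophages.

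Ptprc-low barcodes had nearly every member lower in the sitagliptin library. Over 733 sitagliptin and 1157 control barcodes the summed level was 1320.0 CPM (sitagliptin) and 1801 CPM (control), a ratio of 0.733 (0.721 to 0.746). All 32 members were measured, 31 lower and 1 higher. The median log2 ratio was -0.38 beside -0.03 over 12912 genes, of which 44.9% were higher. At least 1.5-fold lower were 7 members, against 3.47% of all genes, and 1 was as much higher, against 4.21% of all genes. Bst2 had 396 CPM (sitagliptin) and 566 CPM (control; ratio 0.699, 0.678 to 0.722) and Isg15 138 CPM (sitagliptin) and 193 CPM (control; 0.718, 0.680 to 0.757). The lowest ratios belonged to Oas3 (0.429), Oas2 (0.571), Zbp1, which senses Z-form nucleic acid and can start necroptosis (0.620), Oasl2 (0.631; 28.7 CPM sitagliptin, 45.6 CPM control), Rtp4 (0.636) and Stat2 (0.642; 27.5 CPM sitagliptin, 42.9 CPM control), all with intervals below 1. Irf7 had 20.3 CPM (sitagliptin) and 28.4 CPM (control) and Ifit3 58.9 CPM (sitagliptin) and 70.8 CPM (control). The highest ratios below 1 were those of Ifi44 (0.875), Ifit2 (0.898), Rsad2 (0.911), Dhx58 (0.929) and Oas1a (0.942), and Ifit1 was at 0.868. Oasl1 was the 1 higher member (1.56, 1.17 to 2.09; 113 UMIs sitagliptin, 86 UMIs control). Median depth was 20462 UMIs (sitagliptin) and 15397 UMIs (control), and thinning gave a ratio of 0.718; C1qa was at 16.4 CPM (sitagliptin) and 13.8 CPM (control).

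**Figure D4:**
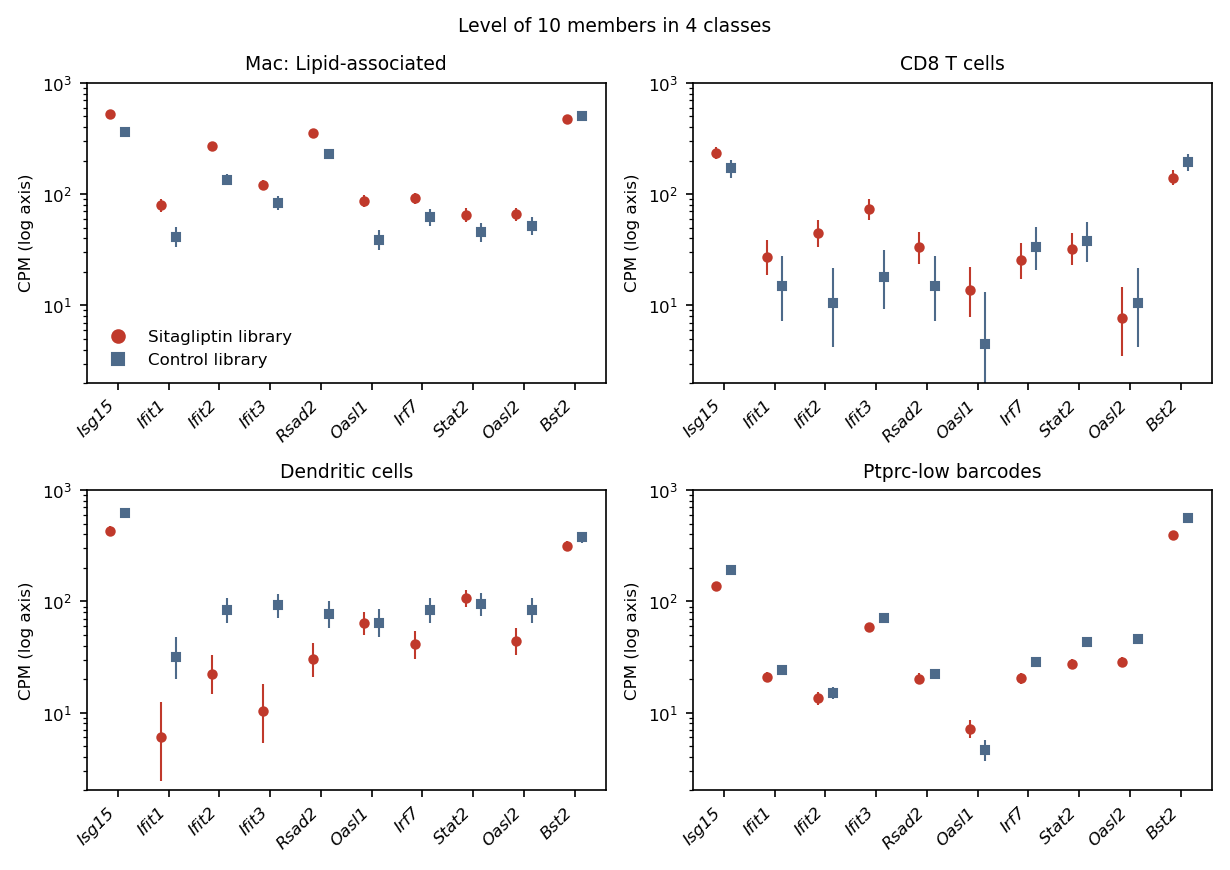
CPM (log axis) of 10 members in lipid-associated macrophages, CD8 T cells, dendritic cells and Ptprc-low barcodes (sitagliptin, red circles; control, blue squares; bars, exact Poisson 95% intervals, counting error only). Ifit2 is higher in the sitagliptin library in lipid-associated macrophages (273 against 136 CPM) and lower in dendritic cells (22.4 against 83.8 CPM), and Bst2 is lower in all 4.

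Over the 6 broad classes (monocytes, macrophages, dendritic cells, T cells, NK cells and Ptprc-low barcodes), few members kept 1 direction. Isg15, Irf7 and Isg20 were lower in all 6 of these classes, Oasl2 in all 5 where it was measured and Oas2 and Ifi44 in all 3, with single ratios inside their counting error in several (Isg15 in monocytes and NK cells, Irf7 in T cells, NK cells and monocytes, Isg20 in NK cells). Class by class, 38.2% (macrophages) to 51.1% (NK cells) of all genes were higher. The share of all genes lower in every class was not counted. Within the broad classes, Isg15 and Irf7 were higher in lipid-associated macrophages, and Isg15 was higher in CD8 T cells. Without the barcode with the most UMIs of the gene in each library, Irf7 in NK cells turned to a ratio of 1.05. Bst2 was lower in 5 of 6; in NK cells its ratio of 1.27 (0.881 to 1.87) turned to 0.884 without such a barcode. Ifi27l2a was higher in 5 of 6, with Ptprc-low barcodes the exception, and Parp14 in 4 of 6. Monocytes had the highest level of most members: 26 members were highest there in the sitagliptin library, while Isg20 was highest in T cells, Stat2 and Ifi35 in dendritic cells, Ddx58 in NK cells and Bst2 and Ifi44 in Ptprc-low barcodes. In the control library 24 were highest in monocytes, with the same exceptions and with Ifit3b in Ptprc-low barcodes and Herc6 in dendritic cells. The share of all genes that were highest in monocytes was not counted, so these counts have no background beside them.

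The wider interferon pathway was read through 4 lists; counts cover genes summing to 20 UMIs or more in the class, and, unless stated, the named ones had 100 or more. The counts stand beside 43.2% of all genes higher in CD8 T cells, 46.8% in dendritic cells, 44.9% in Ptprc-low barcodes, 38.2% in macrophages and 38.7% in monocytes. Of 47 further type I response genes, 37 were measured in CD8 T cells, 29 higher and 8 lower (median log2 ratio 0.35), with the Schlafen genes Slfn1 (66.5 CPM sitagliptin, 34.7 CPM control) and Slfn2 (220.0 CPM sitagliptin, 142 CPM control) and Ifi209 (1.61) highest of the 19 with at least 100 UMIs, and Gbp7, Ly6e and Trim25 lowest of these (0.736 to 0.865). In dendritic cells 11 of these were higher and 29 lower. Of the 22 with at least 100 UMIs, Dtx3l (0.671) and Gbp7 (0.673) were among the lowest and Ifi205 (1.67), Slfn5 and Ifi211 highest; with fewer UMIs, Ifit1bl1 (0.0670) and Slfn4 (0.107), named after their values were seen, were lower still. In Ptprc-low barcodes 9 were higher and 36 lower (median -0.28), and in macrophages 14 higher and 33 lower (median -0.06), with Siglec1 (0.746) and Ly6e (0.776) among the lowest and Nmi, Trim34a and Dtx3l highest (1.20 to 1.28) of those with at least 100 UMIs. Monocytes had 22 higher and 24 lower, and those with at least 100 UMIs ran from Uba7 (0.727) to Slfn8 (1.38).

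Of the 11 receptor and signalling genes 1 was higher and 10 lower in macrophages, where Socs1, a feedback inhibitor of JAK kinases, had a ratio of 0.747, and the receptor genes Ifnar1 and Ifngr1 had 0.939 and 0.984. Ifnar2 had 81.8 CPM in sitagliptin and 64.9 CPM in control CD8 T cells, a ratio whose interval held 1. Ifng, the gene of interferon gamma, had 135 CPM in sitagliptin and 78.5 CPM in control CD8 T cells, and the other way 19.4 CPM (13 UMIs) in sitagliptin and 82.7 CPM (31 UMIs) in control NK cells (ratio 0.234, 0.113 to 0.461); the NK values were chosen after they were seen. The interferon gamma response list went with the members in Ptprc-low barcodes (1 higher, 17 lower; median -0.52; Psmb9 0.557, Gbp2 0.586, Psmb8 0.636) and against them in CD8 T cells (4 higher, 12 lower; median -0.16; Cd274 0.648, Cxcl10 2.08). In macrophages it had 4 higher and 13 lower, with Cxcl9 at 1.32 and Psmb9 at 0.795, and in monocytes 10 higher and 7 lower, with Cxcl10 at 1.31. Of the sensing genes, Tmem173, the gene of STING, had 46.6 CPM in sitagliptin and 53.7 CPM in control macrophages, and Tbk1 78.4 CPM in sitagliptin and 57.3 CPM in control CD8 T cells.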

How the data were processed

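The authors deposited, for each of the 2 libraries, a sparse table of UMI counts, whole numbers left unscaled, with genes against barcodes; per the labels' protocols, CD45+ cells were sorted magnetically from tumour suspensions and prepared with the SeekOne DD 5' kit. No source used here names the aligner, the genome build or the cell filter. The smallest barcode had 2001 UMIs. Counts are molecules by 5' tag, so near-identical copies (Ifit3 and Ifit3b, Oas1a and Oas1g) can share reads.

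From these counts, the 6% of barcodes with the highest Scrublet scores were removed per library (586 sitagliptin, 522 control), since its automatic threshold marked 0% of barcodes. Classes needed at least 3 UMIs from at least 2 markers and a minimum share of the barcode's UMIs; these minimums, and the exclusion of 2 low-UMI clusters, were set after seeing the data. CD8 T cells were T cells with at least 2 UMIs of Cd8a and Cd8b1 together. Macrophage programs took the highest standardized marker score of at least 1. UMIs were summed per class and library and scaled to CPM. Intervals are exact Poisson for CPM, exact conditional binomial for ratios and Clopper-Pearson for shares, all at 95%; they and the floor of 3 counts cover counting error only. A member counts as measured from 20 UMIs, both libraries together. For shares of barcodes, each barcode was thinned at random to 2000 UMIs. Leiden clusters (2000 variable genes, 30 components, resolution 1), mixed barcodes, thinning, other markers and left-out barcodes were tried as alternatives. Values are printed for 8 chosen members (2 of them in the smaller macrophage programs), and for the 6 highest and 6 lowest ratios in classes of at least 100 barcodes per library; of other lists, they come from the 3 highest and 3 lowest among genes of 100 UMIs or more in the class, save where the text says otherwise, and 1 gene of these lists is not reported here. The members and lists were chosen with earlier results of these data known. Calculations were checked on simulated counts. Python 3.11.15, scanpy 1.11.5, scipy 1.17.1, leidenalg 0.10.2 and matplotlib 3.10.9 were used.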

Additional observations from a re-analysis of the deposited data

Results flagged for a closer look

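Among the classes, 3 had a summed ratio of sitagliptin over control whose whole interval lay above 1, while macrophages as a whole were at 0.967; NK cells (1.05) and mixed barcodes (1.02) had intervals that held 1. These were lipid-associated macrophages at 1.31, CD8 T cells at 1.21 and inflammatory macrophages at 1.07, the last turning to 0.953 without the barcode of largest member share in each library. With 1 library per diet, the difference between these classes and the others was not tested.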

How the results depend on the processing

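No paired analysis was possible because each diet has 1 library. Over 10 classes, 88 recomputed summed ratios (sitagliptin over control) gave 57 that stayed within their interval, 29 that moved and 2 that turned direction. A turn was counted only where the main interval lay wholly on 1 side of 1. The turns were macrophages at 1.04 (median log2 ratio 0.09) with classes from Leiden clusters, and inflammatory macrophages at 0.953 (median -0.07) without the barcode of largest member share in each library; in the latter that barcode accounts for it, and in the former the cause was not tested. T cells and NK cells, whose main intervals held 1, crossed 1 with Leiden clusters and with thinning and count as moved. Other ratios whose main interval held 1 could cross 1 without being counted as turns. With Leiden clusters the ratios were also 1.28 for T cells (median 0.40), 0.832 for NK cells, 0.908 for dendritic cells (median -0.03), 0.918 for monocytes (median -0.14) and 0.69 for Ptprc-low barcodes. With thinning they were 1.14 for T cells (median 0.28), 1.32 for CD8 T cells, 0.956 for the other T cells, 0.883 for NK cells (median -0.37), 0.956 for macrophages, 1.21 for lipid-associated macrophages and 0.718 for Ptprc-low barcodes. Without Bst2 and Ifi27l2a they were 1.34 for CD8 T cells, 0.68 for the other T cells, 0.695 for dendritic cells, 0.993 for macrophages, 1.43 for lipid-associated and 1.11 for inflammatory macrophages and 0.748 for Ptprc-low barcodes. With doublet calls kept they were 1.29 for NK cells, 1.25 for lipid-associated and 1.03 for inflammatory macrophages, and with mixed barcodes as T cells 1.05 for CD8 T cells and 0.881 for the other T cells. Of the alternatives chosen after seeing the data, monocytes called without Ly6c2 and Plac8 gave 0.989 for macrophages and 1.12 for inflammatory macrophages, and leaving out the barcode of largest member share gave 1.35 for lipid-associated macrophages, 0.716 for Ptprc-low barcodes and 0.864 for T cells other than CD8 T cells. Also chosen after seeing the data, leaving out the barcode with the most UMIs of a gene turned Bst2 in NK cells to 0.884 and Irf7 in NK cells to 1.05, by construction through those barcodes, while the other 45 of 47 ratios of 9 members in 6 classes kept their direction. For these single members any crossing of 1 counted as a turn. In no other case was a cause tested. Depth limits plasmacytoid cells, cDC1, neutrophils and NK cells most, where 4, 5, 13 and 14 members reached 20 UMIs.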
